A study of Mus musculus with 12 samples.

Results

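Genes for 9 transcription factors and cofactors that act together in early blood formation were followed across 4 sorted cell populations of the mouse embryo. The genes were Gata1, Gata2, Gata3, Tal1, Lyl1, Lmo2, Ldb1, Fli1 and Erg, taken by symbol from a table of 33531 genes, and all 9 were found and passed the filter for testing. The cells came from large arteries (umbilical, vitelline and dorsal aorta) of 122 Ly6a-GFP+ embryos at embryonic day 11.5 (strain label B6129S). Sires carried the Tg(Ly6a-GFP) reporter, which drives green fluorescent protein from Ly6a, the gene of the stem cell antigen Sca-1, and dams were F1 hybrids of the C57BL/6 and 129S1/SVImJ strains. Hematopoietic cluster cells (HC) were sorted as CD31+ CD144+ ESAM+ c-Kit+ and endothelial cells (EC) as CD31+ CD144+ ESAM+ c-Kit-. Each type was divided into GFP+ and GFP- cells, which gave 4 groups of 3 libraries from pooled embryos. The reporter is carried by the GFP- groups too, so the groups differ in its fluorescence and in c-Kit and not in genotype.

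GATA factors are zinc finger proteins that bind the sequence GATA, while Tal1 and Lyl1 are helix-loop-helix proteins that bind E-box sequences as dimers with E proteins. Lmo2 does not bind DNA and bridges these factors to each other and to the dimerizing protein Ldb1, and Fli1 and Erg are Ets family factors found in both endothelium and blood. Together with Runx1, the members Gata2, Tal1, Lyl1, Lmo2, Fli1 and Erg are known as the heptad, a group of factors that bind shared regulatory elements in blood stem and progenitor cells. Gata1 replaces Gata2 at many sites as red cells and megakaryocytes mature.

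Expression was given as FPKM, fragments scaled for transcript length and for the mapped fragments of the library, so that levels of different genes can be compared. The number of reads is unknown, but the steps between the lowest values gave each library's depth relative to the deepest, replicate 1 of GFP+ EC: 0.617 for replicate 2 of GFP+ EC, where the fewest genes were above 0 (16353), and 0.82 to 0.965 for the other 10. Summed FPKM ranged from 555675 to 691948, and the correlation between libraries across genes was 0.956 to 0.979 within a population and 0.899 to 0.968 between populations. The sorted proteins' genes were present in every library. The level of Cdh5, which encodes CD144, was at least 383 FPKM and that of Pecam1, which encodes CD31, at least 200 FPKM. The level of Kit was 35.5 ± 3.18 FPKM in GFP+ HC and 21.4 ± 3.84 in GFP- HC, against 14 ± 0.62 for GFP+ EC and 16.3 ± 3.18 in GFP- EC (mean ± SD, n = 3), so its RNA was present in the cells gated as c-Kit-. Summed levels of 12 macrophage markers were 276.5 to 1658 FPKM in HC libraries and 13.89 to 39.75 in EC libraries. Comparisons used limma on log2(FPKM + 1), with p-values adjusted over all 13278 genes tested, and a gene is said to have risen or fallen where its adjusted p was under 0.05. Fold changes on this scale understate the change of low genes.

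The members lay in 3 ranges of abundance. Ldb1 and Lmo2 were the most abundant, at 141 to 172 FPKM and 105 to 167 FPKM over the 12 libraries, above 96% and 95.2% of the tested genes. Fli1, Erg, Lyl1, Gata2 and Tal1 were intermediate, with levels above 88.5%, 87%, 83%, 70.5% and 65.8% of tested genes. Gata3, a factor of T cell and sympathetic development, and Gata1 were low, above 18.9% and 9.46% of tested genes. The highest population mean exceeded the lowest by 2.81-fold for Gata3, 2.27-fold for Lyl1, 2.02-fold for Gata1 and 1.96-fold for Gata2. That ratio was 1.36 for Lmo2, 1.21 for Tal1, 1.2 for Erg, 1.17 for Ldb1 and 1.08 for Fli1.

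**Figure D1:**
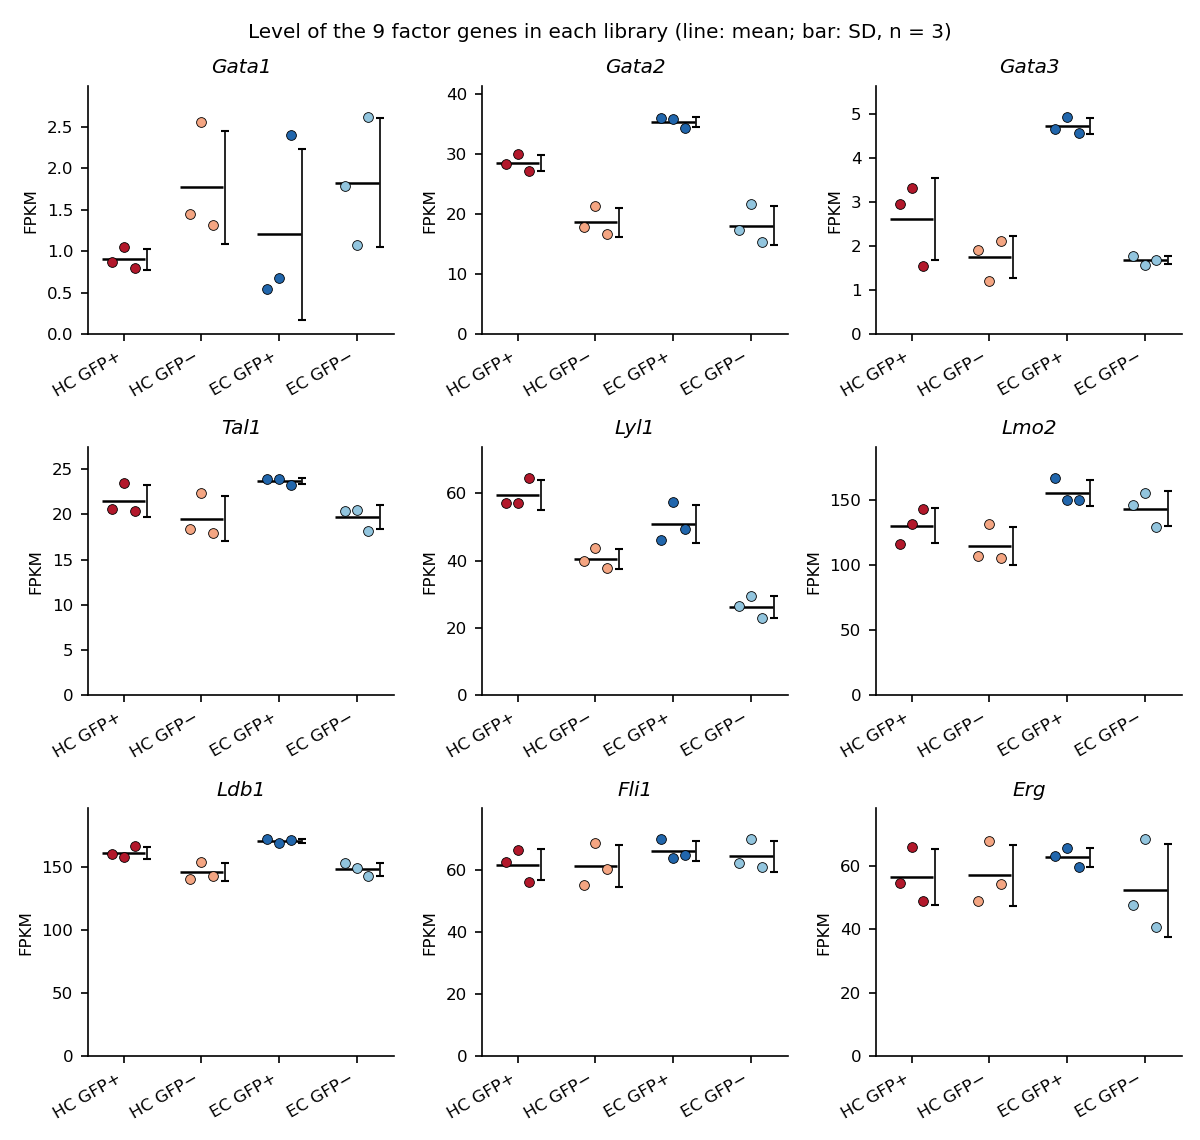
FPKM of each of the 9 genes (vertical axes, starting at 0) in the 12 libraries, grouped by sorted population. Points are libraries, lines means and bars SD (n = 3). Gata2 lay at 27.2 to 35.9 FPKM in GFP+ and 15.3 to 21.7 FPKM in GFP- libraries, whereas the Fli1 libraries of all 4 populations overlapped.

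The windows of 250 bases before the annotated start are shown for Gata2, Lyl1 and Gata3, the 3 members with the largest called differences between GFP+ and GFP- cells, and for Tal1, whose differences did not pass. They are from RefSeq on the GRCm38.p6 build, which is not the build named for the files, and are written 5′ to 3′ on the gene's strand. Capitals mark matches on either strand to a GATA motif (the letters AGATAA, the letters AGATAG, the letters TGATAA or the letters TGATAG) or to an Ets motif (the letters CCGGAA or the letters CAGGAA). The Gata2 window is its first annotated start at chr6:88193641-88193890 on the plus strand, Lyl1 is at chr8:84701207-84701456 on the plus strand, Gata3 at chr2:9878601-9878850 on the minus strand, and Tal1 is its first start at chr4:115056176-115056425 on the plus strand.
Gata2: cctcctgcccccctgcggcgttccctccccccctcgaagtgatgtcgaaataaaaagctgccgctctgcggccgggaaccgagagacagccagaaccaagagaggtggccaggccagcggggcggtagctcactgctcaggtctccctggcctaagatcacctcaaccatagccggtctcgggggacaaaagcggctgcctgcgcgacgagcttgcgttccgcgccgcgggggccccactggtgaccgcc
Lyl1: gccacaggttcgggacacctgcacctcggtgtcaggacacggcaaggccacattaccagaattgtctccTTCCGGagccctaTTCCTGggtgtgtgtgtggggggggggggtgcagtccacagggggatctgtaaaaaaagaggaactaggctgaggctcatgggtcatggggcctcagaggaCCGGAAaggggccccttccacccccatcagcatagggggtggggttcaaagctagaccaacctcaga
Gata3: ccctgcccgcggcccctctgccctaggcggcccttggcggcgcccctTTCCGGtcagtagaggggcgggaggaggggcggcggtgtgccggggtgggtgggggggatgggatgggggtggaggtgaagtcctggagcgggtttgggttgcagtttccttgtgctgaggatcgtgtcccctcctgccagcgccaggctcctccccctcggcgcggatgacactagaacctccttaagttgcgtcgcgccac
Tal1: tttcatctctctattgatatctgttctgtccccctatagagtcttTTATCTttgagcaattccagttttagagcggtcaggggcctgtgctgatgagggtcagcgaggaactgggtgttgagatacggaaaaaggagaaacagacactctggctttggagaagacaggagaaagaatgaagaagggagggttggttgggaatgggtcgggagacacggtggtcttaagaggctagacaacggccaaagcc
The Lyl1 window held 3 Ets matches and 1 E-box (CANNTG), that of Gata3 1 Ets match and that of Tal1 1 GATA match, and the Gata2 window held none of these letters. The GC content was 67.2% for Gata2, 70% for Gata3, 60% for Lyl1 and 48.8% for Tal1, with a median of 52.4% over all windows. Of 32851 such windows of mouse genes, 26.5% held a GATA match, 35.1% an Ets match, 66.2% an E-box and 18.6% a Runx motif (the letters TGTGGT or the letters TGCGGT). RefSeq starts were matched for 7 of the 9 members, with 13 windows in all, of which 3 held a GATA match, 4 an Ets match, 4 an E-box and 0 a Runx motif. Lmo2 and Fli1 had no matched window. An exon of Gm13256 overlaps the Gata3 window. A match is a description of letters and not of binding, and motifs outside these windows were not searched.

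Gata2, the GATA factor of blood stem cells and arterial endothelium, was higher in GFP+ than in GFP- cells of both types. Its level was 28.3, 29.9 and 27.2 FPKM in the libraries of GFP+ HC and 17.9, 21.3 and 16.6 in those of GFP- HC. It was 35.9, 35.8 and 34.4 FPKM in GFP+ EC and 17.3, 21.7 and 15.3 in GFP- EC. Every GFP+ library lay above every GFP- library. In HC the means differed 1.53-fold (log2 0.59 ± 0.12 SE, 95% interval 0.33 to 0.86, adjusted p = 0.019), and in EC 1.96-fold (log2 0.94 ± 0.12, 95% interval 0.68 to 1.21, adjusted p = 0.000594). The HC call was lost without replicate 1 or 2 of GFP+ HC or without replicate 1 or 3 of GFP- HC, with log2 changes of 0.52 to 0.60 and adjusted p of 0.0568 to 0.0865, while the EC call was kept in each of 21 settings. The order of population means was GFP+ EC, GFP+ HC, GFP- HC and GFP- EC. The first neighbours did not differ beyond the threshold (log2 -0.30 ± 0.12 for HC against EC among GFP+ cells, adjusted p = 0.129), although their libraries did not overlap, and the difference passed with the 2 populations fitted alone (adjusted p = 0.0396). The last neighbours overlapped (log2 0.05, adjusted p = 0.881).

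Gata3 was highest in GFP+ EC. Its level there was 4.66, 4.94 and 4.57 FPKM, against 1.77, 1.58 and 1.70 in GFP- EC. In GFP+ HC it was 2.96, 3.32 and 1.55 FPKM and in GFP- HC 1.92, 1.22 and 2.13. The GFP+ EC libraries stood above all 9 others, and the HC populations overlapped. Within EC the means differed 2.81-fold (log2 1.09 ± 0.20, 95% interval 0.65 to 1.54, adjusted p = 0.00517), a call that was kept in each of the 20 settings in which the gene was tested. Among GFP+ cells HC had less Gata3 than EC (log2 -0.70 ± 0.20, adjusted p = 0.0386), but that call was kept in 9 of 20 settings, and log2 was -0.47 (adjusted p = 0.104) without replicate 3 of GFP+ HC. With the replicate number as a block its adjusted p was 0.0559. Within HC the change did not pass the test (log2 0.37 ± 0.20, adjusted p = 0.389). Exons of Gata3 overlap those of 9230102O04Rik and of the antisense gene Gm13256 in the GENCODE annotation, and the strand setting is not given in the sources used here, but those genes reached at most 1.48 and 0.406 FPKM.

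Gata1, the erythroid and megakaryocytic GATA factor, was near the filter of 1 FPKM, reaching 1 FPKM in 8 of 12 libraries. Its level was 0.871, 1.05 and 0.799 FPKM in GFP+ HC and 1.45, 2.56 and 1.32 in GFP- HC, and these libraries did not overlap. It was 0.552, 0.677 and 2.40 FPKM in GFP+ EC and 1.79, 1.07 and 2.63 in GFP- EC, where replicate 3 of GFP+ EC lay among the GFP- values. No comparison passed the test. Within HC the log2 change was -0.52 ± 0.31 (adjusted p = 0.446), with a 95% interval for the fold of 0.436 to 1.12, and within EC it was -0.41 ± 0.31 (adjusted p = 0.421). The order of means was GFP- EC, GFP- HC, GFP+ EC and GFP+ HC. Neighbours in this order overlapped, and the GFP+ HC libraries lay below all libraries of both GFP- populations.

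Of the summed FPKM of Gata1, Gata2 and Gata3, Gata2 made up 89.1% ± 2.56 in GFP+ HC, 84% ± 1.07 in GFP- HC, 85.6% ± 2.2 for GFP+ EC and 83.3% ± 5.58 for GFP- EC (mean ± SD, n = 3). The Gata1 share was 2.82% ± 0.204 in GFP+ HC and 7.86% ± 2.03 in GFP- HC, without overlap. In EC it was 2.93% ± 2.49 and 8.8% ± 4.49, with overlap. Over 48 comparisons of shares and ratios between members, an exact two-sided permutation test of 3 libraries against 3 could not fall below p = 0.1. The smallest value after Benjamini-Hochberg adjustment was 0.185, so the shares and ratios are given as sizes.

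Lyl1, a helix-loop-helix factor close to Tal1, rose with GFP in both cell types and, among GFP- cells, was higher in HC than in EC. Its level was 57.0, 57.0 and 64.7 FPKM in GFP+ HC and 39.96, 43.8 and 37.9 in GFP- HC. It was 46.2, 57.3 and 49.3 FPKM in GFP+ EC and 26.5, 29.5 and 22.9 in GFP- EC. Every GFP+ library lay above every GFP- library, and the GFP- EC libraries were the lowest of the 12. The GFP difference was 1.47-fold in HC (log2 0.54 ± 0.11, 95% interval 0.30 to 0.79, adjusted p = 0.0183) and 1.94-fold in EC (log2 0.93 ± 0.11, 95% interval 0.69 to 1.17, adjusted p = 0.000357). The HC call was lost without replicate 3 of GFP+ HC (0.48) or replicate 1 (0.53) or 3 (0.50) of GFP- HC. Among GFP- cells HC exceeded EC 1.54-fold (log2 0.61 ± 0.11, adjusted p = 0.0134), a call lost without replicate 1 of either population (log2 0.62 in both, adjusted p = 0.0627 and 0.0518). Among GFP+ cells the corresponding change was 0.23 ± 0.11 (adjusted p = 0.21), and GFP+ EC did not differ from GFP- HC beyond the threshold (log2 -0.32 for HC against EC, adjusted p = 0.0774). All 12 macrophage markers rose in the same comparison, and their part in the Lyl1 difference was not tested. Exons of Lyl1 overlap those of Nfix on the other strand, which reached at most 3.64 FPKM.

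Tal1, the helix-loop-helix factor required for blood formation, varied little. Its level was 20.6, 23.5 and 20.3 FPKM in GFP+ HC and 18.3, 22.4 and 17.9 in GFP- HC. It was 23.9, 23.9 and 23.2 FPKM in GFP+ EC and 20.4, 20.5 and 18.2 in GFP- EC. The HC populations overlapped, and the GFP+ EC libraries lay above those of GFP- EC. Neither the change in HC (log2 0.14 ± 0.10, adjusted p = 0.552) nor that in EC (log2 0.26 ± 0.10, adjusted p = 0.108) passed the test, and with libraries scaled to an equal FPKM sum the EC change was 0.45 (adjusted p = 0.0164). None of the 6 pairs of populations differed beyond the threshold.

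Within single libraries, Gata2 and Lyl1 changed relative to Tal1. The ratio of Gata2 to Tal1 was 1.373, 1.273 and 1.338 in GFP+ HC and 1.505, 1.496 and 1.479 in GFP+ EC. It was 0.978, 0.953 and 0.930 in GFP- HC and 0.847, 1.057 and 0.842 in GFP- EC, so that every GFP+ library exceeded every GFP- library. The ratio of Lyl1 to Tal1 averaged 2.79 in GFP+ HC, 2.09 in GFP- HC, 2.15 for GFP+ EC and 1.33 in GFP- EC.

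**Figure D2:**
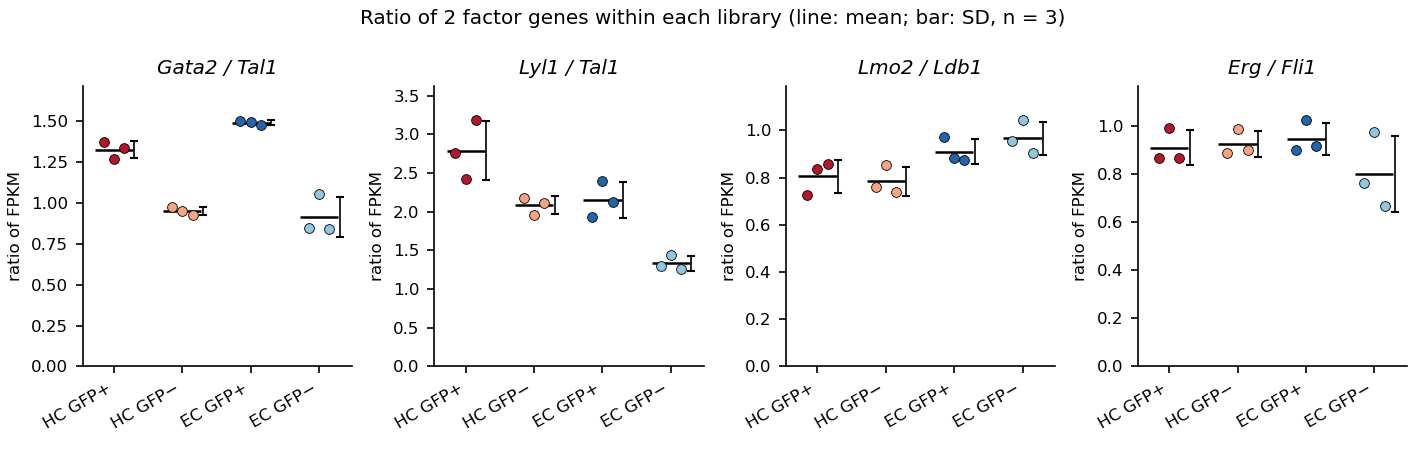
Ratio of the FPKM of one gene to that of another in the same library (vertical axes, no unit, starting at 0), by sorted population. Points are libraries, lines means and bars SD (n = 3). The Gata2 to Tal1 ratio was above 1.27 in the 6 GFP+ libraries and at most 1.057 in the 6 GFP- libraries, while the Erg to Fli1 ratio overlapped in all pairs of populations.

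Lmo2, the bridging cofactor, was not called for GFP in either cell type. Its level was 116, 131 and 143 FPKM in GFP+ HC, 107, 132 and 105 in GFP- HC, 167, 149.6 and 149.8 for GFP+ EC, and 146, 155 and 129 in GFP- EC. Endothelial libraries were higher on average in both GFP classes. The change was 0.19 ± 0.11 for GFP in HC (adjusted p = 0.441) and 0.12 ± 0.11 in EC (adjusted p = 0.521). For HC against EC it was -0.26 ± 0.11 among GFP+ cells (adjusted p = 0.151) and -0.32 ± 0.11 among GFP- cells (adjusted p = 0.133), and the latter passed without replicate 2 of GFP- HC (-0.43, adjusted p = 0.0492). Of the 6 pairs, GFP- HC against GFP+ EC passed (log2 -0.44 ± 0.11, adjusted p = 0.0194), the ends of the order GFP+ EC, GFP- EC, GFP+ HC and GFP- HC. That call was lost without replicate 1 or 3 of GFP- HC or replicate 1 of GFP+ EC.

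Ldb1, the partner of Lmo2, stayed within a narrow range. Its level was 159.97, 158 and 167 FPKM in GFP+ HC, 141, 154 and 143 in GFP- HC, 172, 169 and 172 for GFP+ EC, and 153, 149 and 143 in GFP- EC. GFP+ libraries lay above GFP- libraries of the same cell type. The change in EC was 1.15-fold (log2 0.21 ± 0.06, adjusted p = 0.0406), but it was kept in 8 of 21 settings and had an adjusted p of 0.069 with the replicate number as a block. Of single libraries left out, any of the 6 EC libraries and replicates 1 and 2 of GFP+ HC and 1 and 3 of GFP- HC ended it. The change in HC was 0.15 ± 0.06 (adjusted p = 0.225). Ldb1 also differed between GFP- HC and GFP+ EC, with the lower level in HC (log2 -0.23 ± 0.06, adjusted p = 0.0224), a call lost without replicate 1 or 3 of GFP- HC, without any 1 GFP+ EC library or with no intensity trend. Exons of Ldb1 overlap those of Pprc1 on the other strand, which had 18.3 to 26.2 FPKM, and without a stated strand setting their reads may not be separated. The ratio of Lmo2 to Ldb1 averaged 0.805 and 0.784 in GFP+ and GFP- HC, below the 0.909 and 0.966 of GFP+ and GFP- EC, without overlap between the HC and EC libraries of either GFP class.

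The Ets factors Fli1 and Erg showed no difference that passed the test in any of the 6 pairs of populations. Fli1 was at 62.7, 66.4 and 56.3 FPKM in GFP+ HC, 55.1, 68.6 and 60.3 in GFP- HC, 69.97, 63.9 and 64.9 for GFP+ EC, and 62.4, 70.2 and 61.0 in GFP- EC. The 95% interval of its fold between GFP+ and GFP- cells was 0.872 to 1.17 in HC and 0.888 to 1.19 in EC. Those intervals bound a change at less than the 1.53-fold and 1.96-fold measured for Gata2. Erg was at 54.5, 66.0 and 48.8 FPKM in GFP+ HC, 48.9, 67.7 and 54.3 in GFP- HC, 63.0, 65.5 and 59.6 for GFP+ EC, and 47.5, 68.6 and 40.6 in GFP- EC. Its intervals were wider, 0.753 to 1.31 in HC and 0.928 to 1.61 in EC. Without replicate 2 of GFP- EC the Erg change in EC was 0.50 and passed (adjusted p = 0.0478). Replicate 2 had the highest Erg and the highest Tal1 of its population in all 4 populations, while across all genes 4 of 18 same-numbered pairs of libraries had a correlation of deviations over 0.1. The summed smooth muscle and mesenchyme markers were lowest in replicate 2 of each population (298.1, 500.2, 290 and 339.3 FPKM), and their part in the Erg values was not tested. After the population means were removed, Erg was correlated over the 12 libraries with Gata2 (r = 0.92) and with Fli1 (r = 0.861), values in which both genes of a pair share the library and its scaling.

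**Figure D3:**
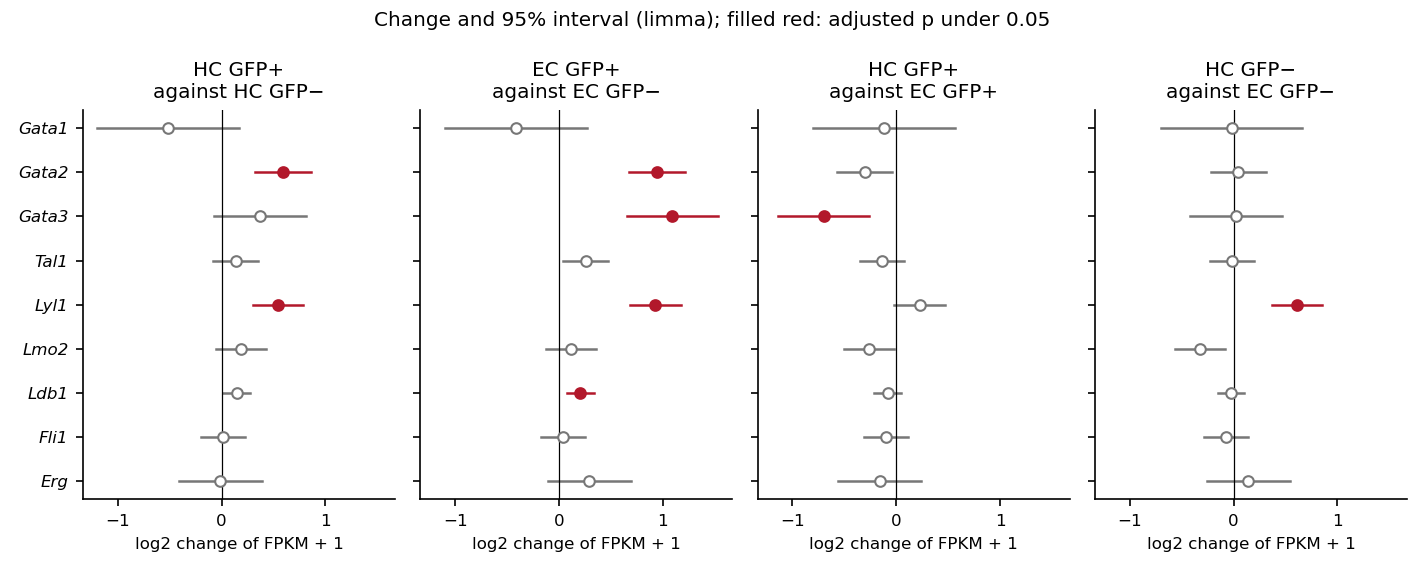
Change of each gene on the log2(FPKM + 1) scale (horizontal axes) with its 95% interval from limma, in the 4 comparisons of neighbouring sorts. Filled red points have an adjusted p under 0.05, which holds for Gata2 and Lyl1 in both GFP comparisons and for Gata3 and Ldb1 in EC, and for Gata3 and Lyl1 in 1 comparison of HC with EC each.

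As a group, 2 of the 9 members rose and none fell in GFP+ against GFP- HC, where 2.98% of all tested genes rose and 1.28% fell. Their median log2 change was 0.15, against 0.00 over all genes. In EC 4 rose and none fell, where 6.96% of tested genes rose and 6.51% fell, with a median of 0.26 against -0.03. With libraries scaled to an equal FPKM sum, the genes called in EC were split into 1919 that rose and 286 that fell, against 924 and 865 with the values as deposited, and the median of all genes moved by 0.172. Between cell types, 1 member was lower in HC for GFP+ cells (Gata3), where 6.09% of tested genes were lower and 8.21% higher. Among GFP- cells 1 was higher in HC (Lyl1), where 2.36% of tested genes were higher and 1.93% lower. In the 2 pairs that differ in both gates, Gata2 and Lyl1 were higher in GFP+ HC than GFP- EC, 2 members where 12.8% of tested genes were higher and 8.85% lower. Gata2, Gata3, Lmo2 and Ldb1 were lower in GFP- HC than GFP+ EC, 4 members where 7.49% of tested genes were lower and 7.95% higher.

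The libraries of 3 members were wholly higher and those of Gata1 wholly lower in GFP+ than in GFP- HC, against 13% and 10.5% of tested genes, and 5 members were wholly higher in GFP+ than in GFP- EC, against 14.8% of tested genes wholly higher and 16.7% wholly lower. In GFP+ HC against GFP+ EC 0 were wholly higher and 4 wholly lower, against 19.6% and 13.8% of tested genes, and in GFP- HC against GFP- EC 1 was wholly higher and 0 lower, against 13.4% and 10.4%. In GFP+ HC against GFP- EC 3 were wholly higher and 1 lower, against 19.3% and 14.8%, and in GFP- HC against GFP+ EC 0 were wholly higher and 6 lower, against 23.8% and 15.9%. These comparisons share libraries and are not independent of each other. A limma test of the difference between the GFP change of HC and that of EC called 0 of the 9 members, with 0.188% of tested genes higher and 0.339% lower, and 2 members had an unadjusted p under 0.05. These were Gata3 (log2 -0.73, adjusted p = 0.352) and Lyl1 (log2 -0.39, adjusted p = 0.371), and for Gata2 the difference was -0.35 (adjusted p = 0.472). A GFP change that differs between the cell types was thus not shown for any member.

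Runx1, the remaining heptad factor, differed in another way from the members. Its level was 12.6, 13.1 and 16.1 FPKM in GFP+ HC, 6.12, 2.73 and 5.57 in GFP- HC, 0.937, 0.913 and 1.22 for GFP+ EC, and 0.629, 0.270 and 1.44 in GFP- EC. It rose with GFP in HC (log2 1.41 ± 0.27, adjusted p = 0.0134), a call lost with a pseudocount of 0.1 (adjusted p = 0.0848) and without replicate 3 of GFP+ HC (adjusted p = 0.0614). Between cell types it was higher in HC both among GFP+ cells (log2 2.88 ± 0.27, adjusted p = 8.18e-05) and among GFP- cells (log2 1.70, adjusted p = 0.00888). The latter call was lost with the 2 populations alone (adjusted p = 0.0549) and without replicate 1 of GFP- HC (adjusted p = 0.0522). The largest member change in these comparisons of cell types was the -0.70 of Gata3.

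Most partners of the complexes did not pass the test for GFP. Of 28 partner and cofactor genes listed, 26 were found and tested. Runx1 rose and Klf1 fell in GFP+ HC, where 2.98% of all tested genes rose and 1.28% fell, with a median log2 change of 0.01. An unadjusted p under 0.05 (limma) was reached there by 4 with a higher and 5 with a lower level. In GFP+ EC 0 rose or fell (limma, 4 with an unadjusted p under 0.05, median 0.01), where 6.96% of all tested genes rose and 6.51% fell. Klf1, the erythroid zinc finger activator, was at 0.822 ± 0.0598 FPKM in GFP+ HC and 3.06 ± 1.4 in GFP- HC (log2 -1.10, adjusted p = 0.0304), a call lost with a pseudocount of 0.1, with the 2 populations alone and when any of 6 single libraries was left out: replicates 1, 2 or 3 of GFP+ HC, 1 or 2 of GFP- HC, or 1 of GFP+ EC. Tcf4, an E protein that can dimerize with Tal1 and Lyl1, was at 38.5 FPKM in GFP+ HC against 57.5 in GFP- HC and at 46.8 in GFP+ EC against 66.1 in GFP- EC, without overlap of libraries and with adjusted p of 0.0768 and 0.0805 (limma). Between cell types 2 partners were higher in HC in each GFP class, Runx1 and Spi1, the Ets factor of myeloid cells, which was at 58.2 ± 24.1 FPKM in GFP+ HC and 1.91 ± 0.684 in GFP+ EC. All 12 macrophage markers were also higher in HC in both GFP classes, and their part in the Spi1 difference was not tested. Within HC, Spi1 was at 23.6 ± 10.8 FPKM in GFP- cells, and its GFP change did not pass. The macrophage markers had a median log2 change of 0.37 there.

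Of the 4 genes for Id proteins, which bind E proteins and keep them from DNA, Id1 and Id3 were lower in HC than EC in both GFP classes, while Id2 and Id4 did not pass. None of the 4 passed for GFP in HC (limma, 1 with an unadjusted p under 0.05) or in EC (0 with an unadjusted p under 0.05). Id1 was at 49.6 ± 2.16 FPKM in GFP+ HC against 108 ± 10.4 in GFP+ EC (log2 -1.10, adjusted p = 5.15e-05), and at 55.1 ± 5.53 in GFP- HC against 101 ± 8.11 in GFP- EC (log2 -0.87, adjusted p = 0.00137). Id3 was at 148 ± 15 FPKM in GFP+ HC against 285 ± 44.6 in GFP+ EC (log2 -0.94, adjusted p = 0.000638). For GFP- cells its change was -0.53 (adjusted p = 0.0352), a call that was lost with no filter, with no intensity trend, with the replicate block (adjusted p = 0.0569) or with the 2 populations alone. It was also lost without replicate 1 or 3 of GFP- HC, 1 or 3 of GFP- EC, 1 of GFP+ HC or 1 of GFP+ EC.

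Many erythroid genes, a group that Gata1 activates, had lower levels in GFP+ HC. In HC 19 of 28 tested erythroid genes fell and 1 rose, with a median log2 change of -1.38, and 1.28% of all genes fell. In EC 13 of 28 fell and none rose, with a median of -0.57, and 6.51% of all genes fell. The gene that rose in HC was Tfr2, a transferrin receptor (2.14 ± 0.465 against 0.516 ± 0.0765 FPKM, adjusted p = 0.00926, or 0.0791 with a pseudocount of 0.1), and Sptb, which encodes erythroid spectrin, fell from 3.95 ± 0.846 to 0.544 ± 0.0468 FPKM (adjusted p = 0.000204). The summed FPKM of 29 erythroid genes was 1004, 1344 and 1153 in GFP+ HC and 6909, 10060 and 6647 in GFP- HC. It was 1125, 2616 and 1324 in GFP+ EC and 4421, 3555 and 8059 in GFP- EC. The sums did not overlap between GFP+ and GFP- libraries. The highest Gata1 value of GFP+ EC (2.40 FPKM, replicate 3) went with a sum of 1324, and the highest sum (2616, replicate 2) went with a Gata1 value of 0.677 FPKM. In bulk libraries, fewer erythroid cells and less of this RNA per cell cannot be told apart. The 13 that fell in EC became 3 without replicate 1 or 3 of GFP+ EC, 8 without replicate 1 and 5 without replicate 3 of GFP- EC, and 2 with the EC populations fitted alone, whereas the 19 in HC stayed at 15 or more whichever library was left out.

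**Figure D4:**
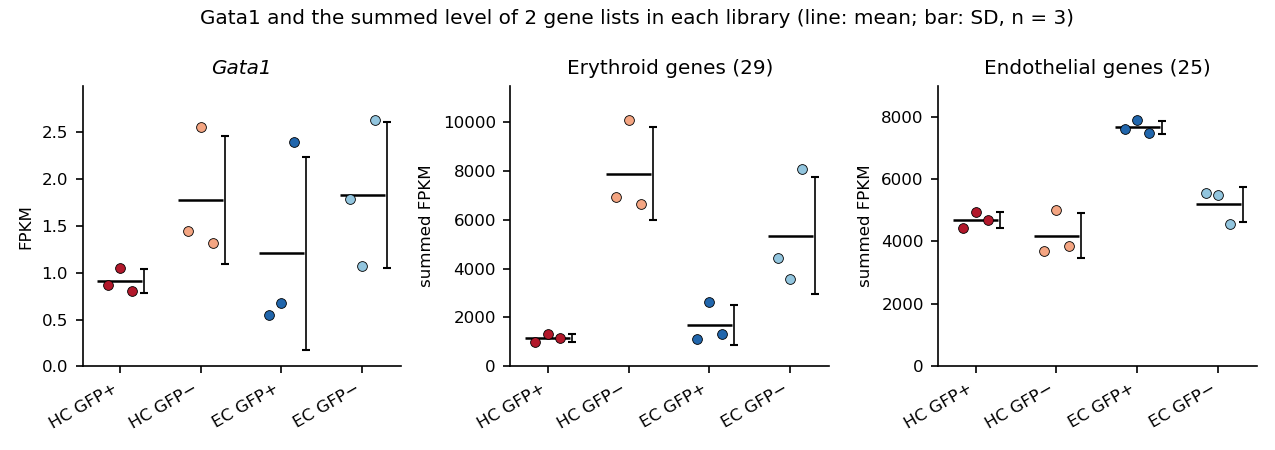
Gata1 FPKM and the summed FPKM of 29 erythroid and 25 endothelial genes (vertical axes, starting at 0) in each library by sorted population. Points are libraries, lines means and bars SD (n = 3). The erythroid sum, most of which came from globin genes, was 1004 to 2616 in GFP+ and 3555 to 10060 in GFP- libraries. The endothelial sum was highest in GFP+ EC, at 7490 to 7877.

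Megakaryocyte genes, another group that GATA factors and Fli1 act on, were counted in the same way. In HC 6 of 18 tested genes rose and 1 fell (median 0.47), where 2.98% of all tested genes rose and 1.28% fell. In EC 1 rose and 1 fell (median -0.16), a share near the 6.96% and 6.51% of all tested genes. Vwf, which encodes von Willebrand factor and is also made by endothelium, rose in both. The difference between the 2 counts was not tested.

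Among 21 tested genes of blood stem cells and of the transition from endothelium to blood, 11 rose and none fell with GFP in HC (median 0.92), and 7 rose and none fell in EC (median 0.42), where 2.98% and 6.96% of all tested genes rose. Mecom, a stem cell zinc finger factor, rose in both, from 12.1 ± 1.16 to 23.7 ± 1.93 FPKM in HC (log2 0.92, adjusted p = 0.000768) and from 24.5 ± 3.24 to 39.6 ± 1.61 FPKM in EC (log2 0.68, adjusted p = 0.00213). Smad6, an inhibitor of BMP signalling, was at 51.7 ± 2.43 FPKM in GFP+ EC and 18.3 ± 2.3 in GFP- EC (log2 1.46, adjusted p = 1.06e-05), while its change in HC did not pass (log2 0.38, adjusted p = 0.0842).

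Of 25 endothelial genes, 14 rose with GFP in EC and none fell (median 0.48), and 4 rose and none fell in HC (median 0.16), where 6.96% and 2.98% of all tested genes rose. Gja4, an arterial connexin, was at 186 ± 13.8 FPKM in GFP+ EC and 86.4 ± 13.1 in GFP- EC (log2 1.10, adjusted p = 0.000678), and Tek, the angiopoietin receptor, was at 178 ± 6.3 against 78.6 ± 17.1 (log2 1.19, adjusted p = 0.000521). Between cell types 21 of 25 were lower in HC among GFP+ cells and 6 of 25 among GFP- cells, where 6.09% and 1.93% of all tested genes were lower. The 6 became 3 without replicate 1 or 3 of GFP- HC or replicate 1 of GFP- EC, 14 without replicate 2 of GFP- HC and 10 with the replicate block. The 14 that rose in EC became 9 without replicate 3 of either EC population. The endothelial sum was 7490 to 7877 FPKM in GFP+ EC, 4553 to 5537 for GFP- EC, 4425 to 4942 in GFP+ HC and 3704 to 5020 in GFP- HC. The sum was thus highest in GFP+ EC, as were the means of every member but Gata1 and Lyl1, while it overlapped between GFP+ and GFP- HC, where Gata2 did not. Its part in the members' levels was not tested. The 12 macrophage genes showed 0 calls for GFP in HC and in EC (limma, 1 with an unadjusted p under 0.05 in each) and 12 higher in HC than in EC in both GFP classes.

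**Figure D5:**
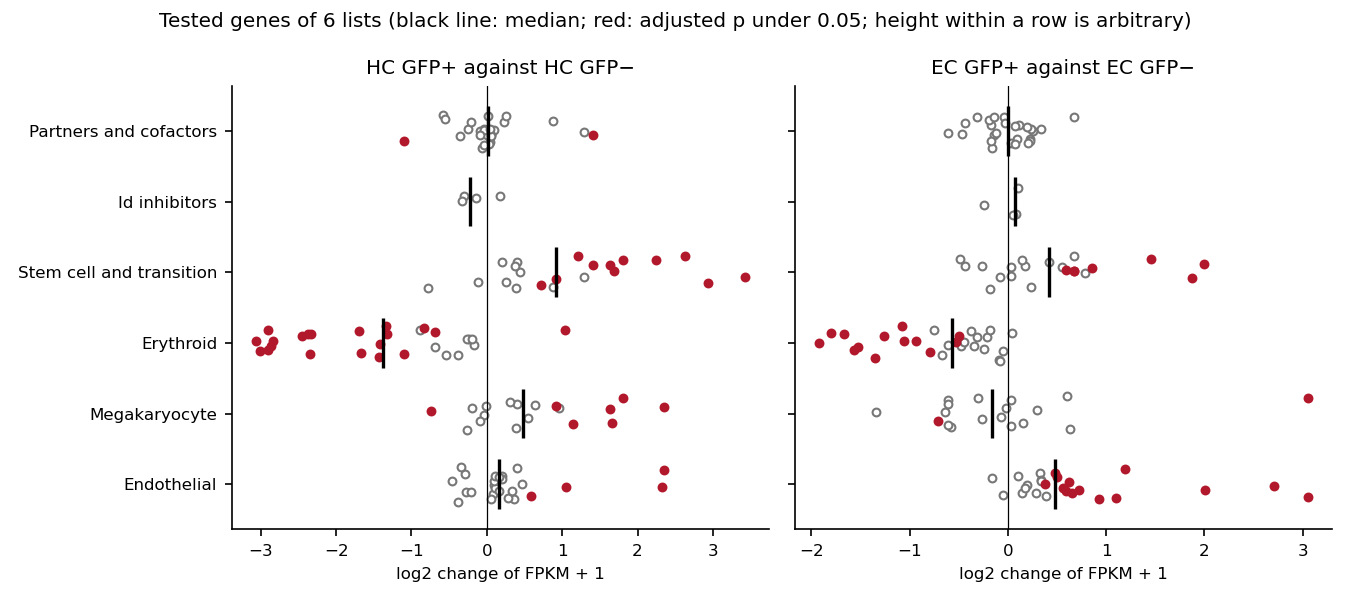
Change with GFP on the log2(FPKM + 1) scale (horizontal axes) of the tested genes of 6 lists, in HC and in EC. Each point is a gene, filled red where its adjusted p was under 0.05 in limma, and black lines are list medians, which were -1.38 in HC and -0.57 in EC for erythroid genes and 0.01 in both for partners.

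Markers of other cell types were summed in the same way. Smooth muscle and mesenchyme markers were 298.1 to 643.6 FPKM in GFP+ HC, 500.2 to 1482 in GFP- HC, 290 to 571.7 for GFP+ EC and 339.3 to 1431 in GFP- EC. All 14 of these genes had a negative log2 change with GFP in HC (median -0.85, 0 called by limma, 6 with an unadjusted p under 0.05), and in EC the median was -0.96 with 1 of 14 called (6 with an unadjusted p under 0.05). Their part in the members' GFP differences was not tested. The gene called in EC was Lum, a matrix proteoglycan gene (16.9 ± 6.47 against 72.5 ± 42 FPKM, adjusted p = 0.047). Its call was lost without any 1 GFP+ EC library (adjusted p = 0.0696 to 0.142), without replicate 2 or 3 of GFP+ HC, or without replicate 1 or 3 of either GFP- population. No filter, no intensity trend, the 2 populations alone and each of the 3 other scalings also ended it (limma, adjusted p = 0.0505 to 0.102).

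Sympathetic and neural markers, a cell class that also uses Gata3, summed to 75.8 to 85.7 FPKM in GFP+ HC and 152 to 188 in GFP+ EC, against 21.9 to 36 and 44.3 to 60.9 in GFP- HC and GFP- EC, so every GFP+ library lay above every GFP- library. Most of the sum was 1 gene, Stmn2, a tubulin-binding protein, at 69.3 ± 5.54 FPKM in GFP+ HC against 11.9 ± 0.706 in GFP- HC, and at 159 ± 19.1 against 35 ± 4.16 FPKM in the EC populations (adjusted p = 7.84e-07 in HC and 8.11e-07 in EC). The sympathetic markers Th, Dbh and Phox2a had population means of at most 1.06 FPKM. Hand2 fell in EC, from 11.8 ± 3.22 to 3.66 ± 1.24 FPKM (adjusted p = 0.0179), a call lost without replicate 1 or 2 of GFP+ EC or 1 or 3 of GFP- EC. Mast cell markers summed to 59.8 to 105 FPKM in GFP+ HC and 45.9 to 53.4 in GFP+ EC, against 18.2 to 23.4 and 10.4 to 17.2 in the GFP- groups. That sum was mostly Srgn, a proteoglycan gene of many blood cells and endothelium, at 72.5 ± 19.3 FPKM in GFP+ HC against 20.1 ± 2.91 in GFP- HC, and at 49.4 ± 4.1 against 13.9 ± 3.72 FPKM in the EC populations. Of the 11 mast cell markers 2 were tested, Tpsb2, Tpsab1 and Mrgprb1 were at 0 in all 12 libraries, and Cpa3 reached at most 5.73 FPKM. The lymphoid sum was 28.3 to 54.4 FPKM in all libraries. Most of it was 1 gene, Lck, at 26.4 ± 4.84 FPKM in GFP+ HC and 38.8 ± 5.86 in GFP- HC. Lck was at 23.1 ± 3.36 FPKM in GFP+ EC and 25.8 ± 0.942 in GFP- EC, while Cd3e was listed at 0 in all 12 libraries.

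Tested genes with a mean of at least 5 FPKM in their highest population, and no clone or model name, were compared with each member. Among them, the genes whose levels followed each member most closely over the 12 libraries were found by Pearson correlation of log2(FPKM + 1). For Gata2 they were Fam171a1 (r = 0.99), Tmem2 (r = 0.981) and Klf2 (r = 0.976), a factor induced by blood flow with mean levels of 115 FPKM in GFP+ HC, 65.9 in GFP- HC, 169 for GFP+ EC and 71.3 in GFP- EC. For Lyl1 they included Lhx6 (r = 0.97) and Arf3 (r = 0.963). For the other members the leading gene was Klhl13 for Gata3 (r = 0.951), Cyp26b1 for Tal1 (r = 0.972), Pdgfb for Lmo2 (r = 0.943), Abi3 for Ldb1 (r = 0.972), Elk3 for Erg (r = 0.913), Plk2 for Fli1 (r = 0.884) and B4galt3 for Gata1 (r = 0.903). By Spearman correlation another gene led for each of the 9 members, Pkn3 for Gata2 and Syngr2 for Lyl1 among them. These values describe the libraries, in which the 4 populations form groups. Among the members, Gata2 was closest to Ldb1 (r = 0.926) and Tal1 (r = 0.87), and Lyl1 and Lmo2 had r = 0.035. These values include the differences between populations. After the population means were removed, Gata2 had r = 0.476 with Ldb1 and 0.792 with Tal1, and was closest to Erg (r = 0.92). Lyl1 and Lmo2 then had r = 0.547.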

How the data were processed

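Polyadenylated RNA of 12 pools was sequenced with NEBNext Ultra libraries, per the labels' protocols, and the labels call the pools independent biological samples without the number of cells in each. The cells sorted per population were 53000 for GFP+ HC, 413000 for GFP- HC, 377000 for GFP+ EC and 791000 for GFP- EC. The part of these numbers in the GFP differences was not tested. The values deposited by the authors are FPKM of each gene in each library. The mm9 build and the tools DESeq, edgeR, featureCounts and Cufflinks are named, without roles or versions, per the submitters' processing notes. Aligner, annotation and strand setting: not given in the sources used here. Without gene lengths FPKM gives no read numbers, so no count test was run, and values are relative within a library. Relative depth was taken from the most frequent ratio between 2 libraries over genes at 0.005 to 0.2 FPKM in both, which have few fragments; at least 9 of 11 estimates, each through another library, were within 2% of the median given.

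Genes reaching FPKM 1 in 3 or more libraries (13278) were tested on the log2(FPKM + 1) scale (limma 3.58.1, R 4.3.3), in 1 model of 4 group means over 12 libraries with 8 residual degrees of freedom, empirical Bayes moderation and an intensity trend. Tests were two-sided, with Benjamini-Hochberg adjustment over all genes of each of 7 comparisons and a threshold of 0.05. The script was tested on simulated data. The members and the 13 gene lists (204 genes) were chosen with earlier results of these data known. Named were the members, Runx1, up to 4 called genes per list, comparison and direction in order of p, markers of other cell types, and the 3 genes most like each member; 3 genes that this rule names are not reported here. The values of Tcf4, Mecom in HC, Smad6 in HC, Gja4 in EC, Kit, Cdh5, Pecam1 and Cd3e are given outside this rule, chosen after they were seen. Replicate numbers were not treated as pairs. Promoter sequences are from RefSeq (GRCm38.p6) and exon overlaps from GENCODE on GRCm38. Alternatives were other pseudocounts, filters, scalings, no trend, the replicate block, 2 populations alone and each library left out.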

Additional observations from a re-analysis of the deposited data

Results flagged for a closer look

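The limma test of the difference between the GFP change of HC and that of EC passed for 4 genes of the lists around these factors. Gpr56, an adhesion receptor of blood stem cells, rose more with GFP in HC, from 7.4 ± 1.17 to 63.8 ± 12.3 FPKM, than in EC, from 6 ± 1.54 to 11.6 ± 1.89 FPKM (difference of log2 changes 2.08, adjusted p = 0.00638). Myb, a progenitor factor, went from 2 ± 0.0448 to 17.8 ± 3.86 FPKM in HC and from 0.253 ± 0.174 to 0.857 ± 0.431 FPKM in EC (difference 2.08, adjusted p = 0.00987), with an adjusted p of 0.38 with a pseudocount of 0.1 and 0.0729 with the stricter filter. Smad6 had the larger change in EC (difference -1.08, adjusted p = 0.0117). Sptb fell more in HC than in EC, where it was at 1.19 ± 0.193 FPKM in GFP+ and 1.59 ± 0.208 in GFP- cells (difference -1.42, adjusted p = 0.0193), and that call was lost when any of replicates 1 and 2 of GFP+ HC, 1 and 2 of GFP- HC or 2 and 3 of GFP+ EC was left out.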

How the results depend on the processing

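Of 1300 values of members under alternatives, Runx1 not included, 1206 kept their sign and their side of the threshold. Of the rest, 42 changed sign without a call in either fit, 42 lost a call, 10 gained one and 0 reversed a call. Causes were not tested. The count of members lower in GFP+ HC than GFP+ EC became 0 with a pseudocount of 0.1, with no filter, with the stricter filter (mean FPKM of 5 or more, which leaves out Gata3) and with the replicate block. When each library was left out, the members that rose in HC were 0 to 2 and in EC 3 to 4, those lower among GFP+ HC than EC 0 to 1, those higher for GFP- HC than EC 0 to 1 and those lower 0 to 1, those higher in GFP+ HC than GFP- EC 2 to 3, and those lower in GFP- HC than GFP+ EC 2 to 5.

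Over all genes, leaving out 1 library gave 231 to 446 higher and 90 to 218 lower for GFP in HC (396 and 170 with all), 606 to 995 and 398 to 1223 in EC (924 and 865), 719 to 1186 higher and 542 to 906 lower for HC against EC among GFP+ cells (1090 and 808), 44 to 404 and 47 to 295 among GFP- cells (313 and 256), 1192 to 1745 and 741 to 1469 for GFP+ HC against GFP- EC (1696 and 1175), 511 to 1221 and 695 to 1107 for GFP- HC against GFP+ EC (1056 and 994), and 4 to 32 and 19 to 51 for the difference of GFP changes (25 and 45). The stricter filter gave 247 higher in HC, and both it and the pseudocount of 0.1 gave 11 and 28 for the difference. Equal FPKM sums gave 1919 and 286 in EC, 562 and 125 among GFP- cells, 3047 and 545 for GFP+ HC against GFP- EC, 735 and 1131 for GFP- HC against GFP+ EC, and 28 and 120 for the difference. They moved the median of all genes by 0.172 in EC, 0.123 among GFP- cells, 0.163 for GFP+ HC against GFP- EC and -0.14 for the difference, and quantile normalization and median ratio scaling moved it by at most 0.075 in size. Quantile normalization gave 950 and 1069 for HC against EC among GFP+ cells. Fits of the 2 populations alone gave 602 and 337 in EC, 192 and 92 among GFP- cells, and 897 and 521 for GFP+ HC against GFP- EC. No filter gave 191 and 141 among GFP- cells. With the stricter filter, which tests fewer genes, 7 stem cell and transition genes rose and 7 erythroid genes fell in HC, and 3 megakaryocyte genes rose. In EC 6 erythroid genes fell with no filter and 8 with the stricter one.

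Same-numbered libraries were not treated as pairs, since 4 of 18 such pairs, and not all, had a correlation over 0.1, of which 3 were between replicates 2 (range -0.084 to 0.27), and 6 of 12 libraries correlated best with their own number. With the replicate block, the adjusted p of Ldb1 in EC was 0.069 and that of Gata3 for HC against EC among GFP+ cells 0.0559, and no other member's call changed. Without absolute read numbers, the precision of low genes such as Gata1 cannot be set from counting error.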
